A study of Mus musculus with 12 samples.

Results

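Quadriceps muscle is mostly muscle fibre, but a dissected piece also carries fat cells, in the tissue around and between the fibres, and the RNA of those cells is sequenced with the rest. A set of 9 genes that mark white adipocytes was followed here in every animal: Adipoq, Plin1, Cidec, Retn, Lep, Fabp4, Cfd, Scd1 and Pparg. They were chosen by name as known markers of fat cells, with earlier results of these data known, and all 9 were among the 15344 genes of the expression tables. The 12 RNA-seq libraries came from quadriceps of 6-month-old C57BL/6 mice, 4 per group. The WT group was wild-type, with no treatment stated, and the KO group was GAA Knock-out and received PBS. The AAV group was GAA Knock-out and received AAV2/8-LSPhGAApA at 2e+12 vg/kg into the tail vein. GAA is the lysosomal acid alpha-glucosidase that breaks down glycogen and that is missing in Pompe disease. The vector carries human GAA under a liver-specific promoter, so the muscle is exposed to enzyme made in the liver, and the injected knock-out mice were males treated at 2 months of age and examined 4 months later. All values are the authors' normalized read numbers, in which each library's reads were divided by a size factor.

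White adipocytes store triglyceride in a single large droplet and release hormones into the blood. Pparg encodes the nuclear receptor that drives fat cell differentiation, and many genes of the mature fat cell are its targets. Plin1 and Cidec encode proteins of the droplet surface, which guard the stored fat and enlarge the droplet. Adipoq, Lep, Retn and Cfd encode the secreted proteins adiponectin, leptin, resistin and complement factor D (adipsin). Fabp4 carries fatty acids in the cytoplasm and is also made by capillary endothelium, and Scd1 makes monounsaturated fatty acids in several tissues. In a bulk sample, fewer fat cells and less RNA per fat cell cannot be told apart.

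The libraries held 22122233 to 47379737 reads each, with the fewest in library 1 of the AAV group, and at this depth the fat genes rested on 2 to 8378 reads per library. Gaa itself had normalized reads of 343, 14640.2, 324 and 460.3 in the libraries labelled WT, of 12151, 13075, 11936 and 12895 in those labelled KO, and of 947, 587, 499.6 and 9854 in those labelled AAV. These RNA values go against the labels, with high levels in every KO-labelled library and low levels in most WT-labelled and AAV-labelled ones. Library WT 2, the highest of the 12, and library AAV 4 lay apart from the rest of their groups. The tables hold RNA levels and not enzyme activity. Libraries are therefore named by their labels (library KO 3 is animal 3 of those labelled KO), every direction below rests on those labels, and values without WT 2 or AAV 4 are given where they bear on a result. Acta1, skeletal muscle actin, was at 719662 to 1753640 normalized reads, so that all 12 libraries were rich in muscle RNA. The animals are separate mice, and p-values measure the spread between them.

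The members lie on 7 chromosomes, and because several of them vary together, the RefSeq sequence upstream of their start sites was searched for sites of the factors that act in fat cells. Windows of 250 bases before the start were found for 7 of the 9 members (RefSeq, GRCm38.p6), with 10 windows in all. The C/EBP motif TTGCNNAA, searched on both strands, was present for 4 members (Plin1, Cidec, Lep and Pparg), and 9.56% of all 32851 windows of this length hold it. The nuclear receptor half-site AGGTCA, on both strands, was present for 1 member, Pparg, against 14% of all windows. The direct repeat of this half-site with 1 base between its copies was present for 0 members and in 0.0335% of all windows, and the letters TATAA on the gene's strand for 2 members, against 16%. These matches describe letters only, and the counts are of members while the shares are of windows. Cidec has 2 windows and Pparg 3, so that counts and shares are not in like units. Windows of 3 members whose levels run in parallel below are shown, each 5′ to 3′, with the C/EBP match and the TATAA match of Lep in capitals, at bases -55 to -48 and -31 to -27 from the start.
Lep (chr6:29059971-29060220, + strand): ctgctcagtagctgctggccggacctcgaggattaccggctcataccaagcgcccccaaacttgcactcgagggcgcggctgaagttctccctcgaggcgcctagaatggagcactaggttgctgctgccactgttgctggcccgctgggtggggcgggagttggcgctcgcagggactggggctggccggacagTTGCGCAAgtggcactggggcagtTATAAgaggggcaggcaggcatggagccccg
Adipoq (chr16:23146286-23146535, + strand): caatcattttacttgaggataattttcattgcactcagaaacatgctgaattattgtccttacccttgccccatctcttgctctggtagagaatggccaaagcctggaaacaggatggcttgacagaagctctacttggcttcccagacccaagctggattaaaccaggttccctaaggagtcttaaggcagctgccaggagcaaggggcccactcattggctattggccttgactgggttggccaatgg
Cidec (chr6:113435761-113436010, - strand, the upstream of its 2 starts): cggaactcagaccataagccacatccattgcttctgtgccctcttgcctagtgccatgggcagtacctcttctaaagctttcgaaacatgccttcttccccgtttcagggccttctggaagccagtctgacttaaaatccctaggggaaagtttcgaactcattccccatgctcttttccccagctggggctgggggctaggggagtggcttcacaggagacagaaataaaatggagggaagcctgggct
The windows of Adipoq and this start of Cidec held none of the 4 motifs.

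Among the secreted proteins, adiponectin RNA was present in every library and differed widely between animals of the same group. Adipoq (ENSMUSG00000022878, chromosome 16, 23146536 to 23158028, + strand; positions here and below from the GENCODE M21 annotation of GRCm38) had normalized reads of 214, 21.3, 97.4 and 13.7 in the libraries labelled WT, of 45.4, 159, 926 and 48.6 in those labelled KO and of 75.8, 143, 132 and 59.7 in those labelled AAV. Library KO 3 stood above all others and libraries WT 2 and WT 4 below all others, and the groups overlapped. The log2 fold change from WT to KO was 1.41 (SE 1.06, limma, Benjamini-Hochberg adjusted p = 0.333). It was -0.48 from KO to AAV (SE 0.82, adjusted p = 0.679), and 0.92 from WT to AAV (SE 0.77, adjusted p = 0.544). Without library KO 3 the KO difference from WT was 0.49, and the AAV difference from KO turned to 0.44. On the recovered reads the KO to AAV difference was larger, at -1.54 by edgeR (adjusted p = 0.205) and -1.53 by DESeq2 (adjusted p = 0.232), and that from WT to AAV was smaller, at 0.26 by edgeR.

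Leptin RNA was scarce but came closest to a difference between groups. Lep (ENSMUSG00000059201, chromosome 6, 29060220 to 29073877, + strand) had normalized reads of 14.5, 5.3, 17.9 and 1.95 under the WT label, of 14.5, 84.7, 191 and 20.3 under the KO label and of 24.8, 49.3, 30.7 and 21.1 under the AAV label. Behind these lay 2 to 22 reads in the WT-labelled libraries and 15 to 176 in the KO-labelled ones. In 3 of 4 KO-labelled libraries Lep was above the highest WT-labelled one, and all 4 AAV-labelled libraries were above all 4 WT-labelled ones. The log2 fold change from WT to KO was 2.49 (SE 0.85, 95% interval 0.61 to 4.38, adjusted p = 0.0521), with an exact two-sided permutation p = 0.0571. On the whole reads recovered from the values, edgeR gave 2.92 (adjusted p = 0.0349) and DESeq2 2.96 (adjusted p = 0.00177), so that both count tests called Lep higher in the KO-labelled libraries. The limma fit of the 8 libraries compared did not call it, while a limma fit of all 12 libraries did (adjusted p = 0.0297). Among the 8 libraries the limma call also depended on single libraries, with adjusted p = 0.0186 without WT 3 and 0.0404 without KO 1, against 0.124 without KO 3 and 0.121 without WT 2. The fold change itself was 1.83 without KO 3 and 2.34 without WT 2. Between the WT and AAV labels the log2 fold change was 1.85 (SE 0.59, adjusted p = 0.151; exact permutation p = 0.0286, the smallest that 4 against 4 allows). Without both WT 2 and AAV 4 it was 1.86 (adjusted p = 0.316). Between the KO and AAV labels it was -0.65 (SE 0.71, adjusted p = 0.514), or -1.32 by edgeR (adjusted p = 0.191).

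Resistin RNA followed adiponectin RNA across the animals. Retn (ENSMUSG00000012705, chromosome 8, 3655770 to 3660110, + strand) had normalized reads of 108, 6.38, 34.1 and 10.7 under the WT label, 20.3, 52.2, 431 and 23.0 under the KO label and 59.3, 70.5, 70.9 and 35.8 under the AAV label. Again library KO 3 was the highest and WT 2 and WT 4 were the lowest, with overlap of the groups. The log2 fold changes were 1.29 from WT to KO (SE 1.04, adjusted p = 0.369; 0.33 without KO 3), -0.01 from KO to AAV (SE 0.81, adjusted p = 0.993) and 1.28 from WT to AAV (SE 0.73, adjusted p = 0.378). By edgeR they were -1.18 from KO to AAV (adjusted p = 0.332) and 0.58 from WT to AAV (adjusted p = 0.705).

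Complement factor D, the protease that starts the alternative complement pathway, was the most abundant of the secreted members. Cfd (ENSMUSG00000061780, chromosome 10, 79890853 to 79892655, + strand) had normalized reads of 1629.7, 168, 771 and 161 under the WT label, 214, 625, 4895 and 396 under the KO label and 781, 1073, 1057 and 647 under the AAV label. The 4 AAV-labelled libraries lay close together and above 3 of the 4 KO-labelled ones, while KO 3 was far above them. The log2 fold change was 0.73 from WT to KO (SE 0.995, adjusted p = 0.601) and 0.28 from KO to AAV (SE 0.77, adjusted p = 0.800). Without KO 3 the difference from KO to AAV was 1.21 with an adjusted p = 0.0397, which passes both thresholds, and the difference from WT to KO turned to -0.19. The WT to AAV difference was 1.02 (SE 0.67, adjusted p = 0.446). By edgeR Cfd was at -0.81 from KO to AAV (adjusted p = 0.472) and at 0.40 from WT to AAV (adjusted p = 0.783).

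**Figure D1:**
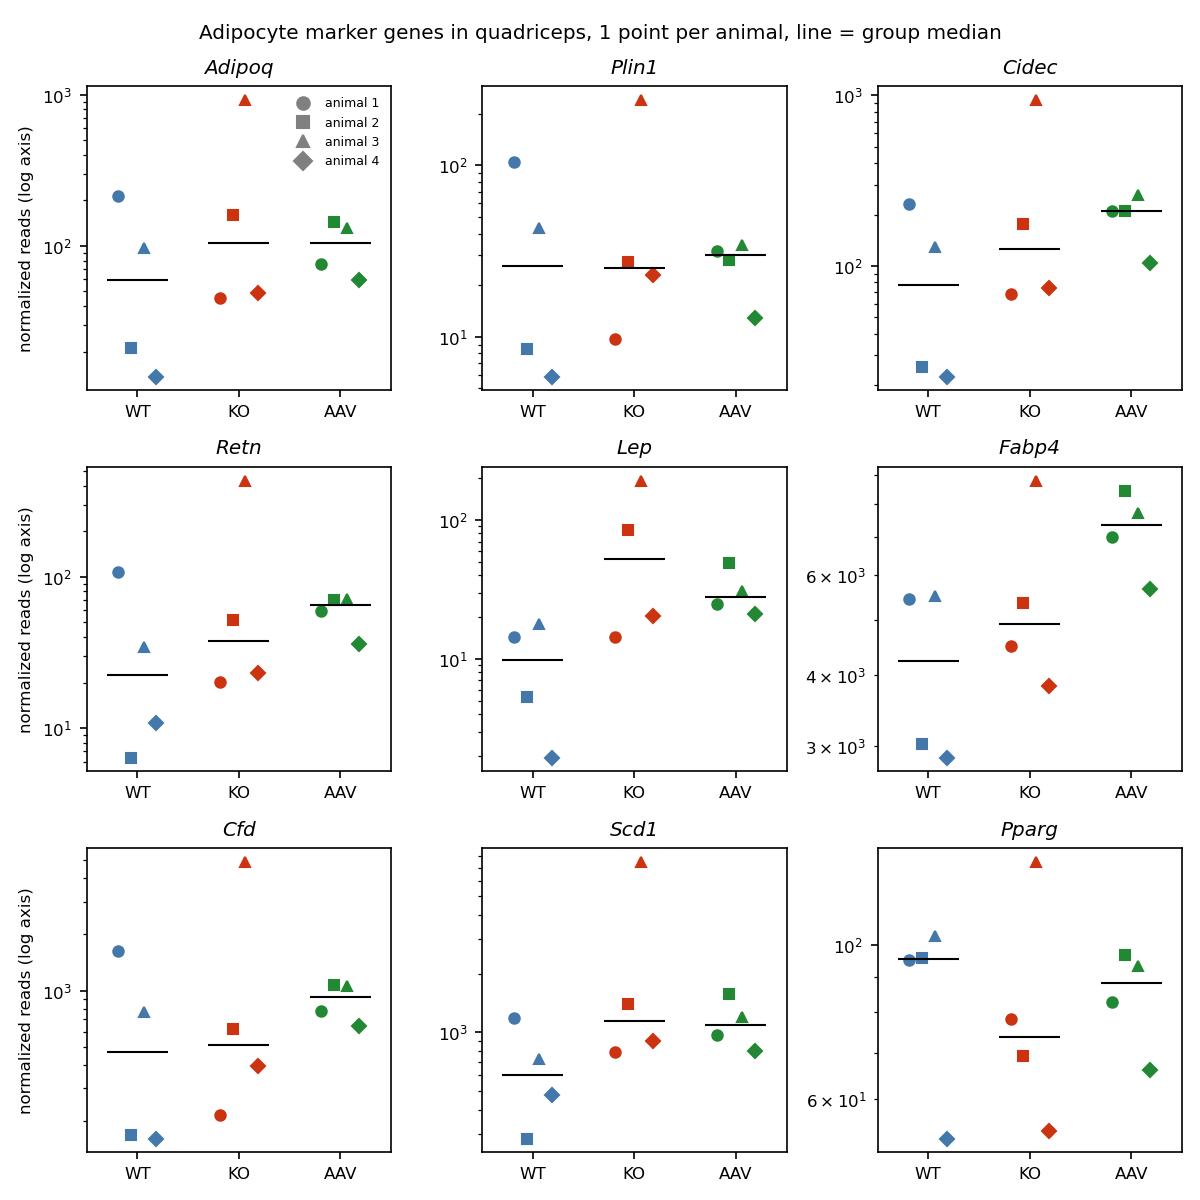
Normalized reads of the 9 adipocyte marker genes (log axis, a scale per gene) in quadriceps libraries labelled WT, KO and AAV, 1 point per animal with its number as the symbol and the group median as a line. Library KO 3 is the highest for all 9 genes and WT 4 the lowest for 7, while the 4 AAV-labelled libraries lie close together, within 2.67-fold for each gene.

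The droplet proteins showed the same animals at both ends. Plin1 (ENSMUSG00000030546, chromosome 7, 79720218 to 79732903, - strand), the perilipin of the mature fat droplet, had normalized reads of 105, 8.50, 43.0 and 5.85 under the WT label, 9.66, 27.4, 241 and 23.0 under the KO label and 31.7, 28.2, 34.2 and 12.8 under the AAV label. Outside KO 3, no KO-labelled or AAV-labelled library exceeded WT 1 or WT 3. Plin1 had a log2 fold change of 0.63 from WT to KO (SE 1.06, adjusted p = 0.672), which turned to -0.28 without KO 3, and -0.48 from KO to AAV (SE 0.80, adjusted p = 0.674), which turned to 0.43. The latter was -1.52 by edgeR (adjusted p = 0.217). The WT to AAV difference was 0.15 (SE 0.80, adjusted p = 0.937), and it was -0.60 by edgeR and -0.61 by DESeq2 (adjusted p = 0.718 in both).

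Cidec (ENSMUSG00000030278, chromosome 6, 113424634 to 113435760, - strand), whose protein fuses small droplets into large ones, had normalized reads of 231, 25.5, 129.9 and 22.4 under the WT label. Under the KO label they were 68.6, 176, 942 and 74.3, and under the AAV label 209, 210.4, 262 and 104. Library KO 3 was the highest of the 12, and 3 of the 4 AAV-labelled libraries were above the other 3 KO-labelled ones. Cidec had a log2 fold change of 1.38 from WT to KO (SE 0.94, adjusted p = 0.285; 0.57 without KO 3), 0.12 from KO to AAV (SE 0.72, adjusted p = 0.910) and 1.51 from WT to AAV (SE 0.70, adjusted p = 0.292). Cidec from KO to AAV was -0.71 by edgeR (adjusted p = 0.500) and -0.69 by DESeq2 (adjusted p = 0.576).

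Both fatty acid genes were highest in library KO 3, and Scd1 spanned a wider range than Fabp4. Scd1 (ENSMUSG00000037071, chromosome 19, 44394455 to 44407879, - strand) had normalized reads of 1180.0, 284, 728 and 475 under the WT label, 791, 1394, 7493 and 897 under the KO label and 965, 1569, 1199.9 and 801 under the AAV label. KO 3 held 4.78 times the next highest library. Scd1 had a log2 fold change of 1.498 from WT to KO (SE 0.68, adjusted p = 0.1199; 0.77 without KO 3), -0.59 from KO to AAV (SE 0.60, adjusted p = 0.483; -1.25 by edgeR, adjusted p = 0.181) and 0.91 from WT to AAV (SE 0.40, adjusted p = 0.263). A short Scd1 transcript is 94.7% identical to Scd2 and 92.8% to Scd3 over 83% of its length. The longest Scd1 match to Scd2 was 86.5% identical over 26.1% of its transcript. Only uniquely mapping reads were counted, and how many reads of these paralogs were dropped or misplaced was not tested. No other member had a transcript of another gene at 90% identity over 50% of its length.

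Fabp4 (ENSMUSG00000062515, chromosome 3, 10204088 to 10208576, - strand) had normalized reads of 5450.1, 3028, 5517 and 2867 under the WT label, 4502, 5358, 8785 and 3830.3 under the KO label and 6994, 8435, 7728 and 5674 under the AAV label. All 4 AAV-labelled libraries were above all 4 WT-labelled ones, and KO 3 was only 1.04 times the next highest library. In AAV against WT, Fabp4 had a log2 fold change of 0.83 (SE 0.25, adjusted p = 0.137; exact permutation p = 0.0286), and without WT 2 and AAV 4 it was 0.80 (adjusted p = 0.265). It was 0.41 from WT to KO (SE 0.30, adjusted p = 0.318) and 0.42 from KO to AAV (SE 0.24, adjusted p = 0.208). Without KO 3 the latter was 0.66 with an adjusted p = 0.0345, below a 2-fold change. Of 9 endothelial markers 3 (Cdh5, Tie1 and Egfl7) were called higher from WT to KO, where 5.43% of all genes were, and 1, Egfl7, from WT to AAV, where 0.951% of all genes were called in either direction. Cldn5 was the least changed from WT to AAV, at 0.18 on the log2 scale. Egfl7, an endothelial secreted protein, was 381, 518, 581 and 677 under the WT label, 1102, 1409, 1030.0 and 906 under the KO label and 1291, 1656, 1598 and 1448 under the AAV label. It was called higher in AAV than in WT, by 1.497 on the log2 scale (SE 0.19, adjusted p = 0.00973). Its call from WT to KO was below a 2-fold change without WT 1 (0.898) and without KO 2 (0.934). From WT to AAV, without AAV 2 the adjusted p was 0.0595, and without both WT 2 and AAV 4 it was 0.0924. The 9 endothelial markers summed to 2951 to 6462 normalized reads under the WT label, 6207 to 8260.0 under the KO label and 6110.1 to 8955 under the AAV label, and their part in the Fabp4 levels was not tested.

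Pparg (ENSMUSG00000000440, chromosome 6, 115360951 to 115490399, + strand), the regulator of the set, had normalized reads of 95, 95.7, 103 and 52.7 under the WT label. Under the KO label they were 78.3, 69.3, 132 and 53.9, and under the AAV label 82.7, 96.7, 93.3 and 66.1. It spanned 2.499-fold over the 12 libraries and the groups lay on top of each other. Pparg had a log2 fold change of -0.09 from WT to KO (SE 0.31, 95% interval -0.78 to 0.60, adjusted p = 0.844), 0.09 from KO to AAV (SE 0.27, adjusted p = 0.823) and 0.00 from WT to AAV (SE 0.26, 95% interval -0.58 to 0.58, adjusted p = 0.999). Pparg overlaps the gene model Gm44079 in the annotation, and the strand setting of the counting is not given in the sources used here.

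Counted together, 0 of 9 members passed an adjusted p of 0.05 with a 2-fold change from WT to KO, where 13.9% of the 14859 genes tested did. Of the members, 1 (Lep) had an unadjusted limma p under 0.05, and edgeR and DESeq2 each called 1 (Lep). DESeq2 gave no adjusted p for Retn and Scd1. The groups overlapped for all 9 members, while 28.3% of all genes had groups that did not overlap. The median log2 fold change over the members was 1.29, with 8 of 9 positive, against 0.02 over all genes. Without KO 3 the median fell to 0.33 with 6 positive, and without WT 2 it was 0.72. By edgeR and DESeq2 the medians from WT to KO were 1.61 and 1.62, each with 8 positive. From KO to AAV 0 of 9 passed, against 8.98% of 14894 genes, with 0 at an unadjusted p under 0.05. edgeR and DESeq2 called 0, but DESeq2 gave no adjusted p for Plin1, Retn, Cfd and Scd1. Here too all 9 overlapped, against 30.6% of genes without overlap, and the median was -0.01, with 4 positive and 5 negative, against 0.04 over all genes. Without KO 3 all 9 were positive from KO to AAV, with a median of 0.44. With all libraries, edgeR and DESeq2 gave medians of -1.18 and -1.16 from KO to AAV, each with 2 positive and 7 negative. From WT to AAV 0 of 9 passed, against 0.951% of 14939 genes, with 3 (Lep, Fabp4 and Scd1) at an unadjusted p under 0.05 and 0 called by edgeR or DESeq2. The median was 0.92 with 8 positive, against -0.03 over all genes, and for 2 members the groups did not overlap, as they did not for 11.7% of all genes. By edgeR the median from WT to AAV was 0.58 and by DESeq2 0.57, each with 7 positive. Without library WT 2 from WT to KO, without AAV 4 from KO to AAV, and without both from WT to AAV, the count of members called was 0 as well. Without KO 3 it was 0 from WT to KO and 1, Cfd, from KO to AAV. The intervals were wide, and for 5 members (Adipoq, Plin1, Cidec, Retn and Cfd) the interval from KO to AAV ran from beyond a 2-fold decrease to beyond a 2-fold increase.

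**Figure D2:**
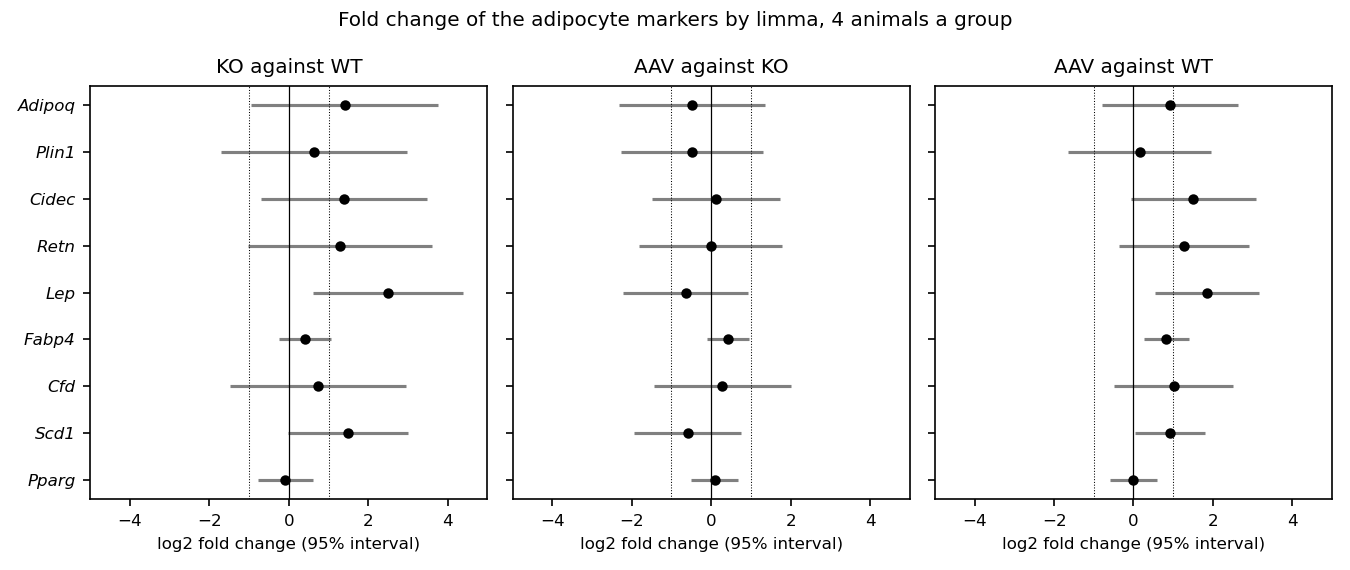
Log2 fold change of each member by limma (point) with its 95% interval (line) for KO against WT, AAV against KO and AAV against WT, 4 animals a group, with dotted lines at a 2-fold change. Only Fabp4 and Pparg have standard errors of 0.24 to 0.31, and the other 7 genes of 0.40 to 1.06.

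Levels varied widely between libraries of 1 label, and with 1 library per mouse the animal, the dissection and the library cannot be told apart. Library KO 3 was the highest of the 12 for 9 of 9 members, while it was the highest for 5.51% of the 13654 genes with a mean of at least 10. Compared with the median of the other 3 KO-labelled libraries, KO 3 had 19.0 times as much Adipoq, 18.7 times as much Retn, 12.7 times as much Cidec, 12.4 times as much Cfd and 10.504 times as much Plin1. The factors were 9.41 for Lep and 8.36 for Scd1, but only 1.95 for Fabp4 and 1.90 for Pparg. At the other end, WT 4 was the lowest library for 7 members and WT 2 for the other two, Retn and Scd1. Summed over Adipoq, Plin1, Cidec, Retn, Lep and Cfd, the libraries labelled WT held 2301, 235, 1093 and 216 normalized reads, those labelled KO 373, 1124, 7626 and 585 and those labelled AAV 1182, 1575, 1587 and 880.1. The AAV-labelled libraries thus spanned the narrowest range, inside that of each other group. The spread within groups, as a pooled SD of log2 values, was 1.61 for Adipoq, 1.59 for Plin1 and 1.55 for Retn, against a median of 0.34 over all genes. It was 0.45 for Fabp4 and 0.43 for Pparg.

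Of the other cell types, red blood cell markers also stood apart in library KO 3, while progenitor, endothelial, macrophage and Schwann cell markers lay nearer to the other KO-labelled libraries. The 7 fibro-adipogenic progenitor markers summed to 13142 normalized reads in KO 3 and to 9213 to 11989 in the other KO-labelled libraries. Endothelial markers summed to 6729.5 in KO 3 against 6207 to 8260.0, macrophage markers to 1224 against 666 to 1067, and Schwann cell markers to 1442 against 1539 to 2434. Red blood cell markers were the lowest of the KO-labelled libraries in KO 3, at 188 against 583 to 1988. Of these 5 markers 2, Hba-a1 and Hba-a2, were called higher from KO to AAV, where 5.43% of all genes were. None of the 9 endothelial, 7 macrophage, 5 Schwann cell or 10 skeletal muscle markers was highest in KO 3. Of the muscle markers, 3 (the myosins Myh1, Myh2 and Myh7) were called lower from WT to KO, where 8.5% of all genes were, and higher from KO to AAV, where 5.43% were. Myh4 was at 0.73 from WT to KO (adjusted p = 0.0487), in the other direction and below a 2-fold change. The part of these cell types in the member values was not tested.

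Per kilobase of exon, and as means over the 12 libraries, the levels of the members ran from 1266 normalized reads for Fabp4 and 1122 for Cfd to 303 for Scd1, 117 for Adipoq and 110.2 for Cidec. Below them were Retn at 48.6, Pparg at 28.7, Lep at 11.8 and Plin1 at 10.2. The order differed between groups. Without KO 3 the means of the other 11 libraries were 742 for Cfd, 191 for Scd1, 74.1 for Cidec, 66.5 for Adipoq, 28.3 for Retn, 7.73 for Lep and 6.44 for Plin1, with Cidec above Adipoq. In the KO group mean Cfd, at 1662, was above Fabp4, at 1252, but Cfd was below Fabp4 in 3 of the 4 libraries, and its mean without KO 3 was 447. In the AAV group mean Cidec, at 106, was above Adipoq, at 74.3. In the WT group mean Pparg, at 29.3, was above Retn, at 25.2, and Plin1, at 8.73, was above Lep, at 2.95. Neighbours such as Adipoq and Cidec overlapped across the animals.

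The ratios to Adipoq differed in how far they spanned. Over the 12 libraries that of Retn ran from 0.3 to 0.786, of Scd1 from 5.53 to 34.8, of Fabp4 from 9.49 to 210 and of Pparg from 0.142 to 4.5. The ratio of Cfd to Adipoq was 7.63 to 11.8 in the WT-labelled libraries, 3.93 to 8.15 in the KO-labelled ones and 7.51 to 10.8 in the AAV-labelled ones, although the levels themselves spanned 30.4-fold. The ratio of Plin1 to Adipoq was 0.4 to 0.492 under the WT label, 0.172 to 0.473 under the KO label and 0.197 to 0.418 under the AAV label. The ratio of Cidec to Adipoq was 1.08 to 1.64 under the WT label, 1.02 to 1.53 under the KO label and 1.47 to 2.76 under the AAV label. The ratio of Lep to Adipoq was 0.0678 to 0.250 under the WT label, 0.207 to 0.532 under the KO label and 0.232 to 0.354 under the AAV label. The lowest of the Lep ratios belonged to WT 1, which was rich in the other markers, and the highest to KO 2. For Cfd, Plin1, Cidec and Lep the range of each group overlapped at least one other, and no test was made on them.

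**Figure D3:**
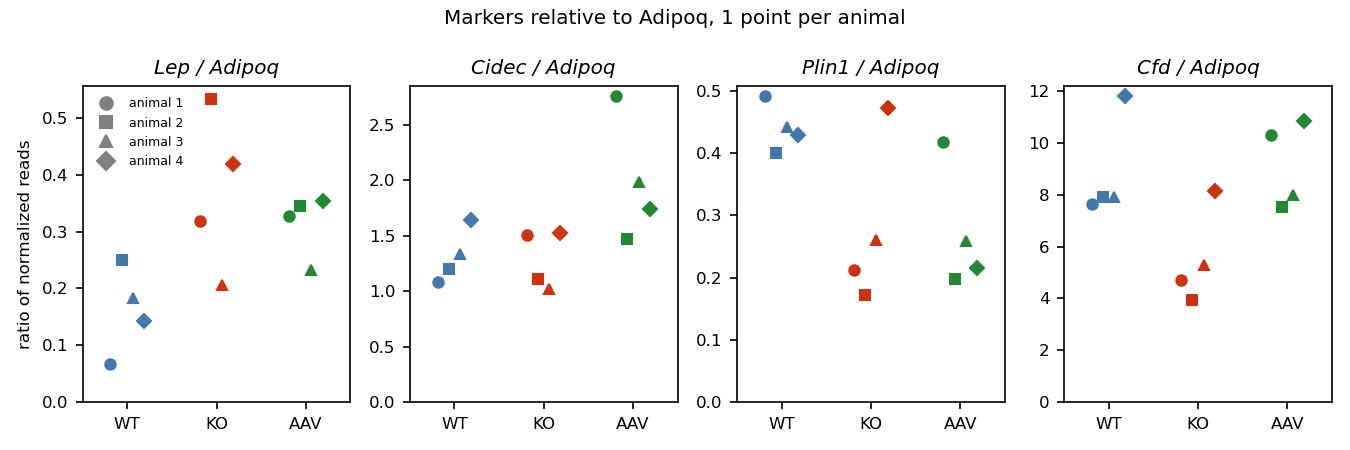
Ratio of normalized reads of Lep, Cidec, Plin1 and Cfd to those of Adipoq in each animal (linear axes from 0, libraries labelled WT in blue, KO in red and AAV in green). Lep per Adipoq is 0.0678 to 0.250 in the WT-labelled libraries and 0.207 to 0.532 in the KO-labelled ones.

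Across the 12 libraries the members rose and fell in parallel, given here as a description. For the 15 pairs among Adipoq, Plin1, Cidec, Retn, Lep and Cfd, Pearson's r of log2 values lay between 0.72 and 0.98 with a median of 0.94, and without KO 3 the median was 0.88. After subtraction of the group means the median was 0.97. Pparg was the least alike, with r of 0.49 to 0.68 with the other 8 members, and 0.13 to 0.52 without KO 3. The points share libraries and their size factors.

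**Figure D4:**
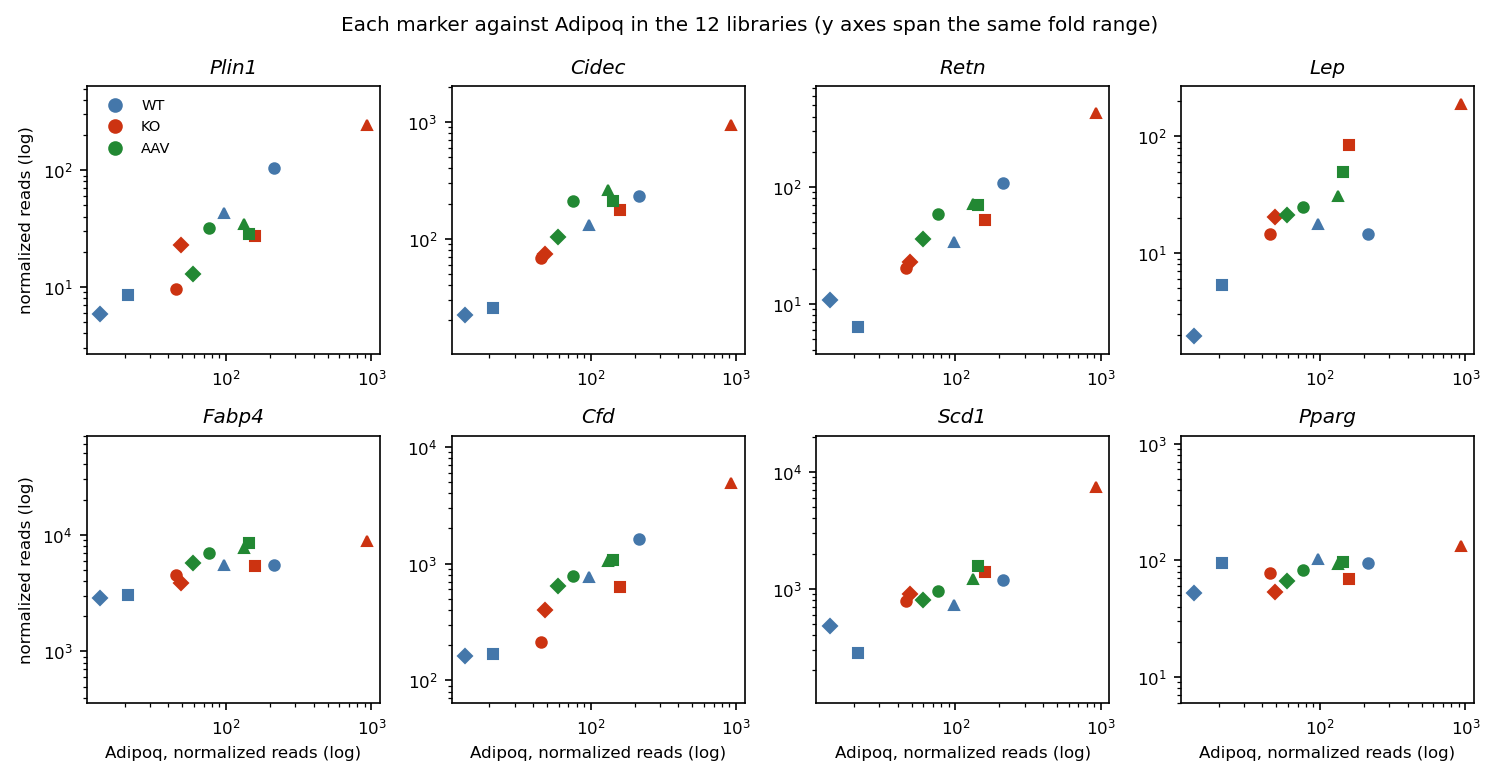
Normalized reads of each of the other 8 members against Adipoq in the 12 libraries (both axes log, the y axes spanning the same fold range; WT in blue, KO in red, AAV in green, symbols for animals 1 to 4 as circle, square, triangle and diamond). Plin1, Cidec, Retn and Cfd climb with Adipoq over its 67.8-fold range, while Fabp4 spans 3.06-fold and Pparg 2.499-fold.

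Of 13653 other genes with a mean of at least 10, the non-members most like Adipoq over the 12 libraries were Cyp2e1 (r = 0.97), Acvr1c (0.96), A530016L24Rik (0.96), Cdo1 (0.96), Tmem45b (0.94), Lgals12 (0.94), Pck1 (0.91), Ces1f (0.90), Rbp4 (0.90), Ifi27l2a (0.89), Mrap (0.89) and Gdf10 (0.89). Lgals12 encodes a galectin of fat droplets, Acvr1c the activin receptor-like kinase of fat cells, Pck1 the enzyme of glyceroneogenesis, and Rbp4 a retinol carrier that fat also secretes. All 12 were highest in KO 3, as a choice by likeness to Adipoq over these libraries favours, and without that library their r was 0.78 to 0.95. Among the members, Cidec and Retn ranked with the first of these, while Fabp4 stood at rank 34 and Pparg at rank 123.

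Genes beyond the members were taken from lists of fat biology and cell types. Of 15 other white adipocyte markers, 12 were highest in KO 3 and 11 had r of at least 0.7 with Adipoq. Of these 15, 1 was called from WT to KO, as lower, where 5.43% of all genes were called higher and 8.5% lower. The same gene was the 1 called from KO to AAV, as higher, where 5.43% of all genes were called higher and 3.55% lower. That gene was Agt, angiotensinogen, the hormone precursor made by liver and also by fat. Agt was 1268, 1271, 753 and 908 under the WT label, 349, 440.4, 468 and 343 under the KO label and 749.8, 683, 641 and 1232 under the AAV label. It fell by 1.37 on the log2 scale from WT to KO (SE 0.20, adjusted p = 0.00208), opposite in sign to the members' median. From KO to AAV it rose by 1.01 (SE 0.21, adjusted p = 0.0103), and in 3 of 8 fits that left out a library, those without KO 1, KO 4 or AAV 4, it stayed below a 2-fold change at 0.95, 0.94 and 0.80.

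Of 6 brown fat markers 3 were highest in library KO 3, namely Ucp1, Elovl3 and Kcnk3, and the others, Prdm16, Dio2 and Zic1, were not. Ucp1, the uncoupling protein of brown and beige fat cells, had 194 normalized reads in KO 3, 2.36 in AAV 3, 0.905 in WT 1 and 0.812 in WT 3, and was at 0 in the other 8 libraries. Cidea, a droplet protein best known from brown fat, had 64.2, 93.5, 31.7 and 72.2 under the WT label, 7.73, 13.7, 177 and 8.84 under the KO label and 34.5, 48.3, 18.9 and 37.6 under the AAV label. Outside KO 3 the KO-labelled libraries were thus the lowest for Cidea, and its log2 fold change from WT to KO was -1.51 (SE 0.85, adjusted p = 0.202), or -0.35 by edgeR. Without KO 3 Cidea was called lower from WT to KO, at -2.52 (adjusted p = 0.00728), and higher from KO to AAV, at 1.66 (adjusted p = 0.0247). Ucp1 and Cidea, the latter from the list of lipid droplet genes, were, like Elovl3, singled out after their values were seen. From WT to KO 1 brown marker was called higher (Prdm16) and 1 lower (Dio2), where 5.43% of all genes were called higher and 8.5% lower.

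**Figure D5:**
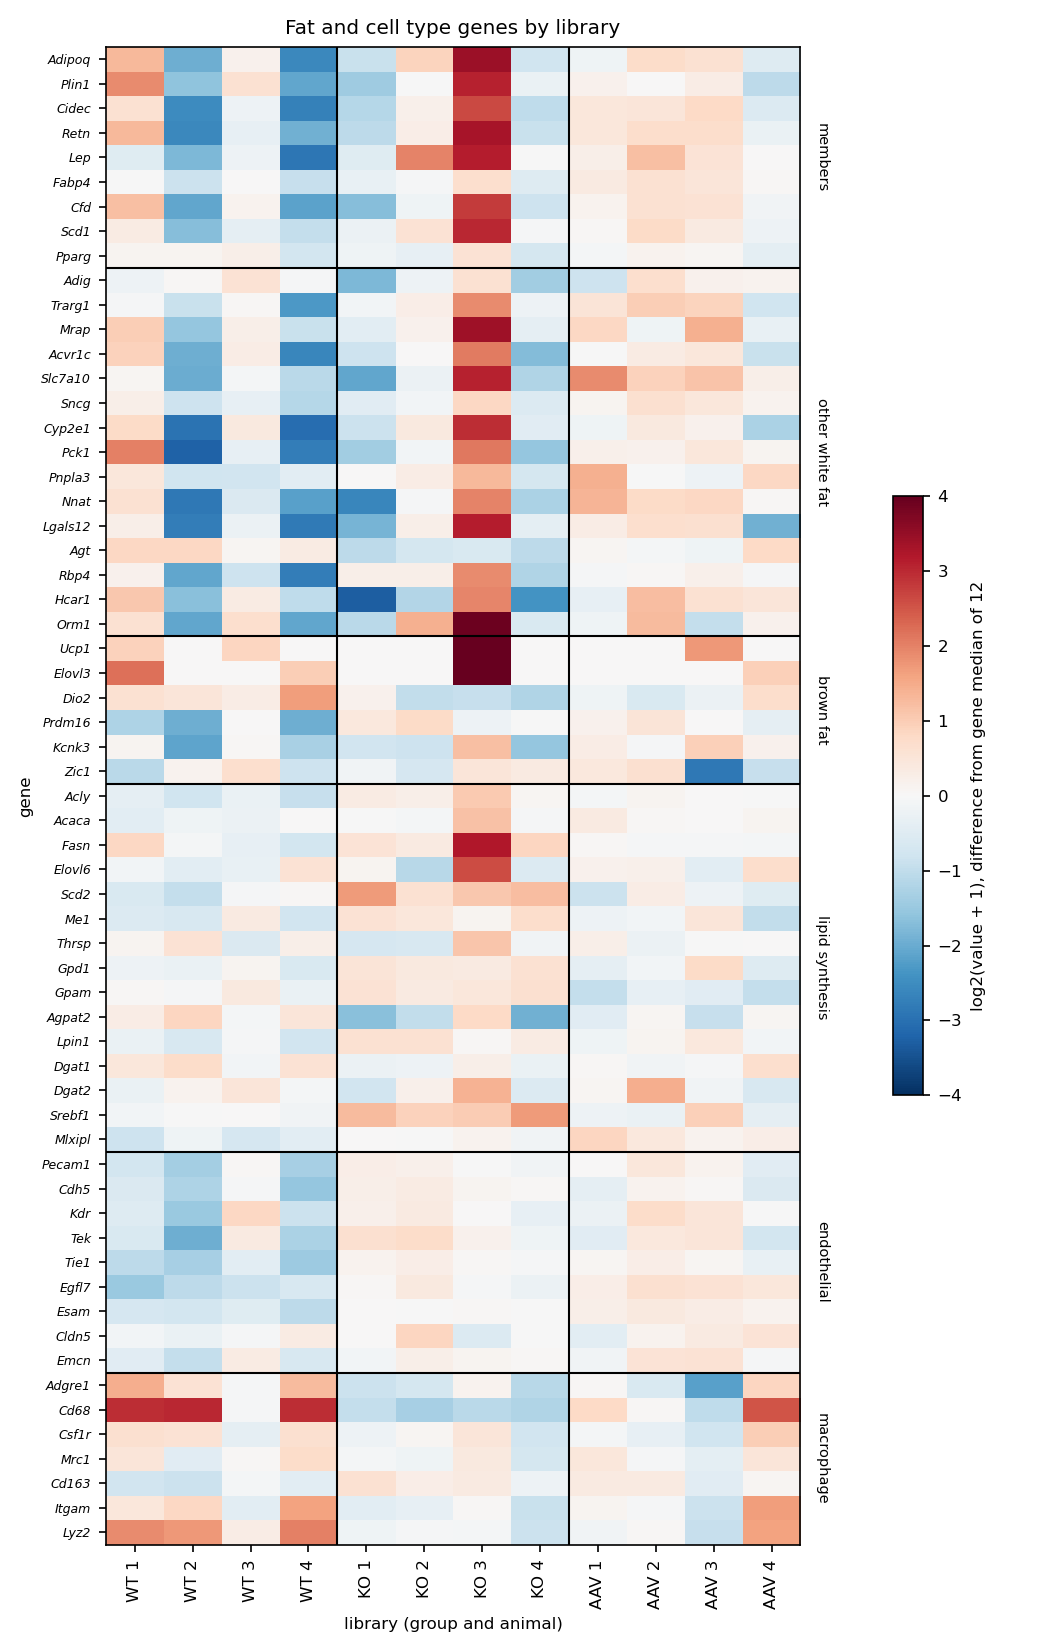
Log2(value + 1) of each gene minus its median over the 12 libraries (colour scale from -4 to 4, values beyond it at the end colours), for the members and the lists of other white fat, brown fat, lipid synthesis, endothelial and macrophage genes. The column of KO 3 is red for all 9 members and for most of the white fat genes, and paler for the endothelial and macrophage genes.

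Among the lipid synthesis genes a few were called between the groups. Of 15 fatty acid and triglyceride synthesis genes, 3 were called from WT to KO, as higher (Acly, Scd2 and Srebf1), where 5.43% of all genes were, and 3 from KO to AAV, as lower (Scd2, Srebf1 and Gpam), where 3.55% were. No test compared this list with the members. Srebf1, the transcription factor that switches on lipid synthesis, was 709, 766, 769 and 696 under the WT label, 1858, 1444, 1551 and 2509 under the KO label and 660.2, 642, 1473 and 604 under the AAV label. It rose by 1.29 from WT to KO (SE 0.17, adjusted p = 0.00142) and fell by 1.20 from KO to AAV (SE 0.28, adjusted p = 0.0164), the latter with an adjusted p = 0.0505 without AAV 1. Scd2, a paralog of Scd1, was 242, 190.3, 352 and 380.4 under the WT label, 1195, 564, 779.9 and 868 under the KO label and 201, 454, 315 and 261 under the AAV label, so that the KO-labelled libraries lay above all the others. It rose by 1.55 from WT to KO (SE 0.27, adjusted p = 0.00451) and fell by 1.48 from KO to AAV (SE 0.27, adjusted p = 0.00716). Gpam, the first enzyme of triglyceride synthesis, was 2029 to 2473 under the KO label and 806 to 1241 under the AAV label, and fell by 1.20 from KO to AAV (SE 0.16, adjusted p = 0.00209). For these 3 genes KO 3 did not stand apart from the other KO-labelled libraries. Fasn, fatty acid synthase, did resemble the adipocyte markers, with 2713 in KO 3 and at most 537 in the other 11 libraries. It was called by limma in no comparison, while edgeR called it lower from KO to AAV (-1.85, adjusted p = 0.0446). DESeq2 gave Fasn no adjusted p from WT to KO or from KO to AAV.

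Regulators and receptors of the adipocyte programme gave a few calls. Of 9 adipogenic regulators 2 were called from WT to KO, both lower, namely Cebpb and Cebpd, C/EBP factors that act early in fat cell differentiation and in inflammation, where 8.5% of all genes were called lower. Cebpb was 766, 6622, 384 and 1020.1 under the WT label, 117, 214, 319 and 255 under the KO label and 1082, 427, 378 and 439 under the AAV label, and it fell by 2.48 (SE 0.73, adjusted p = 0.0315), or by 1.65 without WT 2. From KO to AAV Cebpb was called higher, by 1.305 (SE 0.37, adjusted p = 0.0303), and was not called in the fit of all 12 libraries (adjusted p = 0.181) or in 4 of 8 fits that left out a library (adjusted p up to 0.0761). Cebpd fell by 1.72 (SE 0.53, adjusted p = 0.0366). Leaving out single libraries ended the WT to KO call of Cebpb in 5 of 8 fits and of Cebpd in 6 of 8, with adjusted p up to 0.0867 and 0.103. Of 11 adipokine receptor and signalling genes 2 were called higher (Lepr and Jak2) and 1 lower (Socs3) from WT to KO, where 5.43% of all genes were called higher and 8.5% lower. From KO to AAV 1 was called, Jak2, a kinase that carries the leptin signal, which was lower by -1.31 on the log2 scale (adjusted p = 0.0211), where 3.55% of all genes were called lower. Lepr, the leptin receptor, was 5.43, 3.19, 12.2 and 2.93 under the WT label, 22.2, 21.4, 35.9 and 29.2 under the KO label and 9.65, 25.2, 9.45 and 6.42 under the AAV label. It rose by 2.18 from WT to KO (SE 0.43, adjusted p = 0.00728), and all 4 KO-labelled libraries were above all 4 WT-labelled ones. Socs3, which damps leptin and cytokine signalling, was 518 to 833 under the WT label and 62.4 to 165 under the KO label, and fell by 2.74 (SE 0.30, adjusted p = 0.000584). Under the AAV label Socs3 was 518, 401, 44.9 and 418. From KO to AAV limma did not call Socs3 (1.355, adjusted p = 0.164), while DESeq2 called it higher (1.707, adjusted p = 0.0486). Lepr was at -1.19 from KO to AAV (adjusted p = 0.0532), and was called lower without AAV 2 (-1.556, adjusted p = 0.0147).

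Of the 6 alternative complement genes in the tables, beside Cfd, 1 was called higher from WT to KO and lower from KO to AAV, where 5.43% and 3.55% of all genes were. This was C3, the substrate of the pathway, at 714, 373, 777 and 359.9 under the WT label, 1843, 1118, 1776 and 828 under the KO label and 543, 783, 494 and 558 under the AAV label. It rose by 1.34 (SE 0.33, adjusted p = 0.0166), with an adjusted p of 0.0510 without WT 4 and 0.0513 without KO 1, and it fell by 1.17 from KO to AAV (SE 0.26, adjusted p = 0.0126). Of 10 lipid droplet genes and 8 triglyceride breakdown and uptake genes, 0 were called by limma, edgeR or DESeq2 in any of the 3 comparisons, where limma called 13.9%, 8.98% and 0.951% of all genes. DESeq2 gave no adjusted p from KO to AAV for Cidea and Adrb3. At an unadjusted limma p under 0.05 there were 1, 1 and 1 lipid droplet genes and 0, 2 and 3 breakdown and uptake genes in KO against WT, AAV against KO and AAV against WT. From KO to AAV 2 breakdown genes also passed the adjusted p but not a 2-fold change, Mgll, monoglyceride lipase, at 0.97 (adjusted p = 0.00637) and Abhd5, the activator of the first lipase, at -0.67 (adjusted p = 0.0127). From WT to AAV Mgll was at 0.75 (adjusted p = 0.0483). Of 7 macrophage markers 3 were called lower from WT to KO (Adgre1, Cd68 and Lyz2), against 8.5% of all genes, with Cd68 at 560.1, 590.0, 69.8 and 568 under the WT label and 28.2 to 36.7 under the KO label. Cd163 was at 0.79 (adjusted p = 0.0344), in the other direction and below a 2-fold change. Under the AAV label Cd68 was 126.8, 74.5, 35.4 and 414.8. From KO to AAV limma did not call Cd68 (1.725, adjusted p = 0.0561). It was called higher there by edgeR (2.314, adjusted p = 0.0274) and DESeq2 (2.325, adjusted p = 0.000826). The part of the macrophage markers in the adipocyte values was not tested.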

How the data were processed

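The authors trimmed reads with Trim Galore 0.4.1, aligned them to GRCm38 with STAR, counted uniquely mapping reads per gene with HTSeq 0.6.1 and normalized with DESeq2 1.16.1, as the study's methods and the submitters' processing notes state. The tables hold genes that reached 10 reads in 1 or more libraries. The deposited values are signal of this kind, reads divided by a size factor, in 2 tables that share the KO libraries with a difference of 0, so all 12 libraries are on 1 scale. In each library 100% of the values were whole multiples of 1 step, within 0.01 plus a small part of the value. For the most abundant genes this check could not fail. The multiples were taken as the read counts. The tables also hold the authors' own fold changes, test statistics and p-values, which were not used.

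Fold changes are from limma 3.58.1 (trend) on log2(value + 1), with genes at 10 or more in any of the 8 libraries compared and Benjamini-Hochberg adjustment over all of them. Calls needed an adjusted p below 0.05 and a log2 fold change of 1 or more in size, on the log2(value + 1) scale, which understates low genes. edgeR 4.0.16 and DESeq2 1.42.0 were run on the recovered reads as alternatives, all tested on simulated data. For single members the two-sided exact permutation test was added (scipy 1.17.1). All 9 members were matched by Ensembl gene ID to GENCODE M21 (GRCm38) for positions and lengths. Similar transcripts were sought with BLAST 2.17.0. The members and gene lists were chosen with earlier results of these data known. Named were the 9 members, Gaa, up to 4 genes per list (called genes first, by adjusted p) and the 12 genes most like Adipoq; Acta1, Ucp1, Elovl3, Cidea, Fasn, Cldn5, Cd163, Abhd5 and Adrb3 fall outside this rule and were named after their values were seen.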

Additional observations from a re-analysis of the deposited data

Results flagged for a closer look

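In groups of 4, the gap of the highest or lowest library to its neighbour was divided by the group's range, in normalized reads and not log2 values. This ratio was compared with Dixon's 95% critical value. Of 72 groups examined 18 passed it, 9 of them in library KO 3, and of the 27 groups of the members 7 passed. Chance passes about 1 in 20 single groups where values are normally distributed. On reads a high library stands further apart than on log2 values, and whether the same groups pass on log2 values was not tested. These genes also vary together, and Ucp1, Cidea and Fasn were chosen after their values were seen. The counts are therefore not set against that share. In library KO 3 Adipoq was at 925.6, Cfd at 4895, Cidec at 941.9, Plin1 at 241.5, Retn at 430.7, Scd1 at 7493, Cidea at 177.3, Fasn at 2713 and Ucp1 at 193.6 normalized reads. The members Lep, Fabp4 and Pparg, highest in the same library, did not pass. Pparg was low in WT 4, at 52.66 against 95 to 103.1 in the other WT-labelled libraries.

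Gaa was high in WT 2 (14640) and in AAV 4 (9854). Cebpb was high in WT 2 (6622) and in AAV 1 (1082), Cd68 low in WT 3 (69.8), Srebf1 high in AAV 3 (1473) and Fasn high in AAV 1 (303.2, against 278.1 to 282.3). Ucp1 was at 2.362 in AAV 3 and at 0 in the rest of that group, where any value above 0 passes.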

How the results depend on the processing

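Of 408 member fold changes recomputed under alternatives, 370 kept their direction and their side of the threshold, 7 became called and 31 changed sign. The cause of these changes was not tested. From WT to KO, 1 member was called by edgeR, by DESeq2, with all 12 libraries in 1 fit and with the replicate block, each time Lep. The replicate numbers did not pair the samples (correlations of same-numbered libraries from -0.355 to 0.554, with 3 of 12 libraries closest to their own number), and the block gave 1830, 1003 and 120 called genes for KO to WT, AAV to KO and AAV to WT. Among the 24 genes recomputed here (the 9 members, Gaa and 14 others), the block also ended the calls of Cebpd from WT to KO (adjusted p = 0.073) and of Cebpb from KO to AAV (adjusted p = 0.0794), and it gave Lep an adjusted p of 0.0308. DESeq2 gave no adjusted p for Retn and Scd1 from WT to KO, nor for Plin1, Retn, Cfd and Scd1 from KO to AAV.

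Between KO and AAV, edgeR turned Cfd to -0.81, Cidea to -0.58 and Cidec to -0.71, DESeq2 turned Cidec to -0.69, and Retn became 0.15 when scaled by total reads and 0.00235 with a pseudocount of 0.1. Between WT and AAV, edgeR and DESeq2 turned Plin1 to -0.60 and -0.61 and Fasn to -0.0458 and -0.0655, edgeR turned Gaa to -0.34, and Pparg was 0.15 when scaled by total reads. Without WT 2 and AAV 4 together, an alternative chosen after seeing the data, Pparg was 0.17, Scd2 -0.0557, Srebf1 0.24 and 10 genes were called.

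The 142 genes called from WT to AAV became 417 by DESeq2, 250 when scaled by total reads and 398 in the fit of 12 libraries. Scaling by total reads moved the median of all genes from 0.04 to 0.20 from KO to AAV and from -0.03 to 0.12 from WT to AAV, and the split of higher and lower calls from 809 and 529 to 1058 and 351 and from 109 and 33 to 224 and 26.

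Leaving out 1 library at a time gave 1332 to 3238 called genes from WT to KO, 787 to 1966 from KO to AAV and 18 to 330 from WT to AAV, and 0 to 1 called members in the first and the second. From WT to KO, Cfd ranged from -0.19 to 1.37, Plin1 from -0.28 to 1.36 and Pparg from -0.33 to 0.0912. In the same comparison Adipoq ranged from 0.49 to 2.10, Cidec from 0.57 to 1.99 and Retn from 0.33 to 2.015, each lowest without KO 3 and highest without WT 1. From KO to AAV, Adipoq ranged from -1.0 to 0.44, Cfd from -0.29 to 1.21, Cidec from -0.31 to 0.94, Lep from -1.19 to 0.0193, Plin1 from -1.07 to 0.43, Pparg from -0.0923 to 0.33, Retn from -0.50 to 0.95 and Scd1 from -0.94 to 0.14. From WT to AAV, C3 ranged from -0.0158 to 0.35, Fasn from -0.17 to 0.35, Gaa from -0.51 to 1.79, Plin1 from -0.44 to 0.88, Pparg from -0.22 to 0.11, Scd2 from -0.14 to 0.25 and Srebf1 from -0.21 to 0.22. With 2 reads behind Lep in WT 4, its level there is close to the limit of this depth.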
